A study of Mus musculus with 9 samples.

Results

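Each circular RNA (circRNA) on this mouse liver array had a probe and a partner probe whose name differs only by an added _neg, and 1992 of the 30534 circRNA probes (6.52%) were far brighter than that partner on every array. Membership required a processed intensity at least 8 times that of the partner on each of the 9 arrays and a circRNA spot well above background on all 9. Spots that the scanner software marked as non-uniform or as population outliers were left out. A marked spot left 1985 circRNAs that could not be judged. Of the 21047 circRNAs with unmarked spots on all arrays and a circRNA spot well above background on all 9 (the measured circRNAs below), the members were 9.46%. The members were chosen by this measured ratio and by the background call, so the height of the ratio is given as a description, without a test.

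circRNAs form when a splice donor is joined backwards to an upstream splice acceptor, which closes an RNA into a ring without free ends. Such rings resist exonucleases and are often long-lived, and most known ones hold exons of protein-coding genes. A single gene can give several rings that share an end and differ in the other. A circle shares most of its sequence with the linear transcript of its gene, and the backward junction is the stretch that sets it apart. The target of the circRNA probes and of the _neg partners is stated nowhere in the sources used here, so the ratio of a pair describes 2 spots and is not a measure of how much circle there was.

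The livers came from male C57BL/6J mice, an inbred strain without a listed transgene, at 20 weeks of age. Control mice ate chow for 17 weeks, with no gavage listed. High fat diet mice ate for 17 weeks a diet that drew 45% of its energy from fat and were given saline into the stomach in the last 5 weeks. Metformin mice ate that diet for as long and were given metformin, a biguanide used against type 2 diabetes, at 3 mg/kg/day in the last 5 weeks. The 9 arrays, 3 per group, carried pools of 4 livers each, and the replicate spread is therefore a spread between pools. RNA was digested with RNase R, an exonuclease that removes linear RNA, before labelling. Diet and gavage cannot be told apart in the comparisons with control. In liver RNA as a whole, fewer cells of a kind and less RNA per cell cannot be told apart either. No probe was paired with a host gene here, so members are named by their mm9 position or code as the probe names give them. For the same reason the liver label was not set against marker genes, and exons, introns and genes at these positions were not looked up.

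Of all probes, 71.8% were well above background on high fat diet replicate 2 and 69.4% on metformin replicate 3, against 77.1% to 84.3% on the other 7 arrays. Their lowest processed intensities were also the highest of the series, 12.7 and 11.0 against 3.84 to 7.60. The arrays lay on 2 slides: the 3 control arrays and high fat diet replicate 1 in column 1 of slide 1, the other high fat diet arrays and metformin replicates 1 and 2 in its column 2, and metformin replicate 3 alone on slide 2. Column and group therefore overlap in part, and values within a column are given below. The number of arrays limits the precision of every value.

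Among members the mean log2 ratio over the 9 arrays had a median of 4.43, which is 21.6-fold, against 0.97 or 1.96-fold over all measured circRNAs. The lowest array of the median member stood at 13.0-fold. On every array, 755 members were at least 16-fold, 256 at least 32-fold, 85 at least 64-fold and 29 at least 128-fold brighter than the partner. No gap set the members apart from the circRNAs below the threshold. Just inside, mmu_circ_0003084 had a lowest ratio of 8.0, chr2:75307213-75327883 one of 8.0 and mmu_circ_0008284 one of 8.01. Just outside, mmu_circ_0002705 and mmu_circ_0005028 had 7.99 and chr11:79267305-79289385 had 7.98. The mean of the last of these over the 9 arrays, 16.6-fold, lay above that of 10.4-fold of mmu_circ_0003084, since the rule reads the lowest array only.

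**Figure D1:**
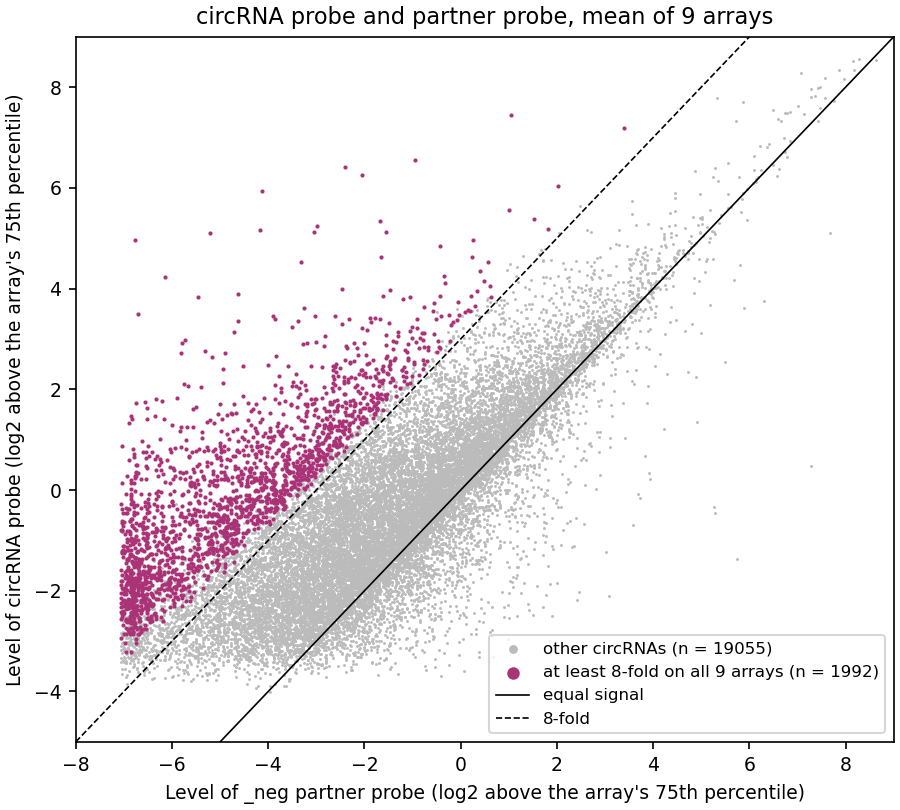
Mean level over 9 arrays of the circRNA probe (vertical) against that of its partner (horizontal), in log2 units above each array's 75th percentile. Each of the 21047 measured circRNAs is a point; the 1992 members lie above the dashed 8-fold line, and many sit at the left edge, where the partner had almost no signal.

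A level is the log2 processed intensity minus the array's 75th percentile over all probes other than controls. The median member level was -0.19 (range -3.22 to 7.44) against -0.67 for the 19055 other measured circRNAs, and the median level of the members' partners was -4.95. The mean level exceeded the 75th percentile for 924 members (46.4%) and for 7008 others (36.8%). Members made up 23 (10.9%) of the 211 brightest measured circRNAs, the top 1%, against 9.46% of all measured ones. The rule used both intensities of a pair, so these levels are a description of what it selected. The local background around the 2 spots of a pair was alike, with median intensities of 37 and 36.

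The partner was well above background on no array for 732 members (36.7%), on 1 to 8 arrays for 748 (37.6%) and on all 9 for 512 (25.7%). Among the other measured circRNAs it was well above background on all 9 for 15372 (80.7%). Where a partner is not well above background, the ratio has no upper limit in these data. A more cautious ratio can be had by raising the partner to the lowest signal of any probe well above background on that array. A spot can miss that call and still read above this signal, so the result is not a strict lower limit. With every partner raised in this way, 1185 members (59.5%) still stood at least 8-fold above it on all arrays. For single circRNAs below, a ratio given as at least a value is the mean over the 9 arrays with the partner so raised.

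The median member ratio was nearly the same on the 3 control arrays, at 4.54, 4.54 and 4.51 on the log2 scale. It was 4.54, 4.37 and 4.42 on the high fat diet arrays, and 4.50, 4.47 and 4.10 on the metformin arrays. Metformin replicate 3 stood lowest, and it held the lowest ratio of 661 members (33.2%), followed by high fat diet replicate 2 with 274 (13.8%). These are the 2 arrays with the highest lowest intensities. Among the 512 members whose partner was well above background throughout, the median ratio was 3.78 on metformin replicate 3, 3.85 on high fat diet replicate 2, and 3.81 to 3.92 on the others. Among the 732 with a partner never well above background it was 4.09, 4.59 and 4.86 to 5.36. The array difference was thus larger where the partner was at background. Without metformin replicate 3 the rule found 2253 members, and without both of these arrays 2419. Leaving out an array can only add members. Without any other single array the rule found 2022 to 2058, the 2058 being without high fat diet replicate 2.

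**Figure D2:**
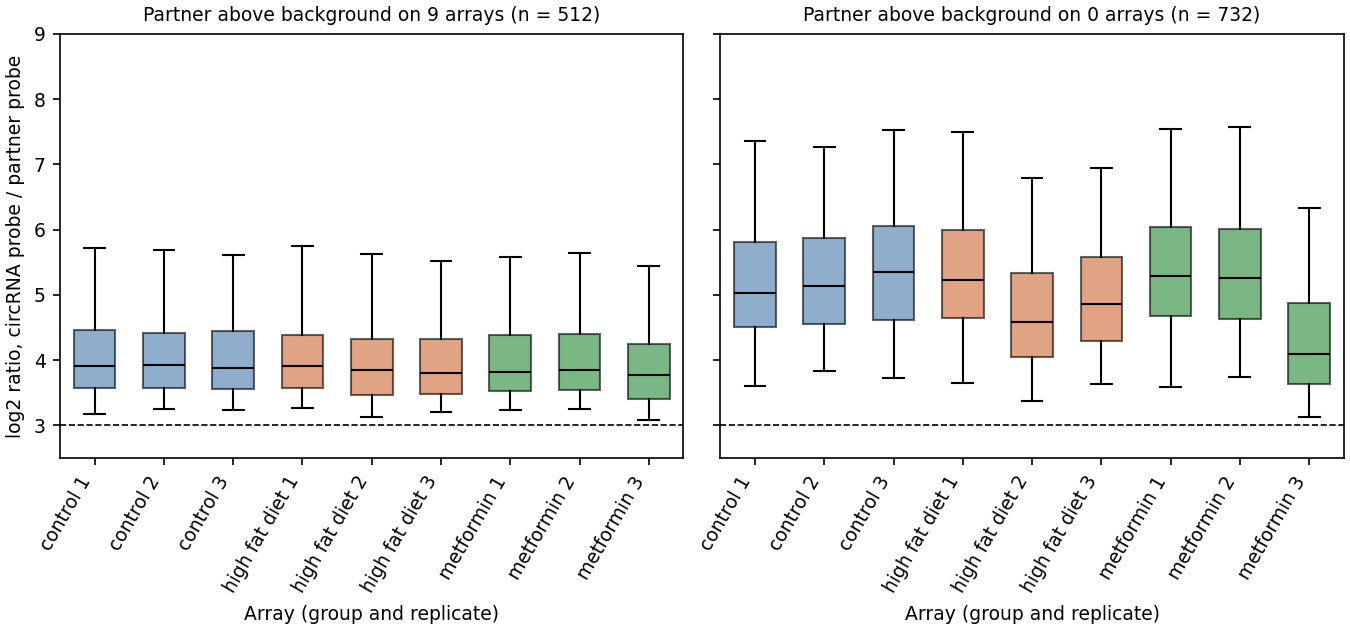
log2 ratio of circRNA probe to partner on each of the 9 arrays, for the 512 members whose partner was well above background on 9 arrays (left) and the 732 with 0 such arrays (right). Boxes show the quartiles and median, whiskers the 5th and 95th percentiles, and the dashed line the 8-fold threshold; on the right, metformin replicate 3 and high fat diet replicate 2 sit lowest.

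The highest ratio belonged to mmu_circ_0014718, whose circRNA spot read 20996 to 30158 while its partner read 4.49 to 16.5. Its mean ratio was 3403-fold, and at least 844-fold with the partner raised to the lowest signal well above background. Its level was 5.06, 5.09 and 4.87 on the control arrays, 4.77, 4.82 and 5.06 on the high fat diet arrays, and 4.91, 4.77 and 5.37 on the metformin arrays. The groups overlapped, and the spot was among the brighter ones of the array in all of them. The circle chr4:97354423-97357427, which spans 3004 bp, followed with 1332-fold, or at least 507-fold. The partner of mmu_circ_0011327 was well above background on 3 arrays, and the mean ratio was 1286-fold, or at least 821-fold. The ratio of mmu_circ_0007185 was 1170-fold, or at least 302-fold, with a partner never above background.

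Next was mmu_circ_0011648, with 1064-fold and 1032-fold on the raised scale, because its partner was well above background on 6 arrays. It was followed by mmu_circ_0003010 with 640.0-fold, chr5:19578894-19580222 with 632-fold, mmu_circ_0006449 with 453-fold, chr1:52579066-52579995 with 415-fold and mmu_circ_0004622 with 415-fold. Only mmu_circ_0006449, of these 10, had a partner well above background on all 9 arrays, so its 306-fold to 670-fold range needed no raised partner. The partner was well above background on 0 arrays for 5 of the 10. The rank of the others depends on how a signal at background is treated.

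The brightest member was mmu_circ_0013098, with a level of 7.63, 7.45 and 7.25 on the control arrays, 7.50, 7.28 and 7.58 on the high fat diet arrays, and 7.24, 7.38 and 7.69 on the metformin arrays. Its ratio ran from 69.2-fold to 107-fold over a partner that was itself bright, at a mean level of 1.04. Next came mmu_circ_0006397 (mean level 7.19, 13.9-fold), mmu_circ_0012223 (6.55, 180.5-fold), mmu_circ_0006449 (6.41), mmu_circ_0009844 (6.25, 318-fold) and mmu_circ_0004755 (6.04, 16.2-fold). The list of 10 ended with mmu_circ_0011648 (5.94), mmu_circ_0000766 (5.56, 23.5-fold), mmu_circ_0011482 (5.38, 14.4-fold) and mmu_circ_0002991 (5.35, 131-fold). Ratios of these 10 ran from 13.9-fold to 1064-fold, so bright spots stood both near the threshold and far above it. Spot brightness also depends on the probe, so this order is not one of abundance.

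The 10 brightest members all had their highest level on metformin replicate 3, as did 13 of the 18 circRNAs in the lists of brightest and highest ratio. The same count over other bright circRNAs is not given, so this is not shown to be particular to members. In the comparisons of groups described below, none of these 18 members passed. Their differences lay between -0.29 and 0.01 for high fat diet minus control, -0.02 and 0.26 for metformin minus high fat diet, and -0.29 and 0.15 for metformin minus control. The smallest adjusted p among them was 0.760 (limma, Benjamini-Hochberg).

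Members came from every kind of probe name in about equal share. They were 915 of 14043 circRNAs named by position (6.52%), 895 of 13892 with an mmu_circ code (6.44%), 145 of 2075 with a Fan code (6.99%) and 37 of 524 with an mmu-circRNA code (7.06%). Among measured circRNAs named by position, the share of members ran from 7.49% on chromosome 15 to 12.6% on chromosome X, with 2 of 13 on chromosome Y. Members were found on every chromosome, and no chromosome held most of them.

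Members spanned more of the genome than others: the median span, end minus start, was 9437 bp for the 915 members named by position and 7602 bp for the 8482 other measured circles. The share of members among measured circles was 6.50% below 500 bp, 7.66% from 500 to 1000 bp, 7.01% from 1000 to 2000 bp and 8.63% from 2000 to 5000 bp. It was 10.2% from 5000 to 10000 bp, 11.1% from 10000 to 20000 bp and 11.2% above that. The shortest member spanned 106 bp and the longest 29977 bp, close to the 100 bp and 29990 bp limits of all position-named circles. Span is a genomic distance and not the length of the spliced ring, and no test was made over circles.

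Where spans overlapped, circles were counted as a locus, which gave 7858 loci, of which 792 held a member. A single member was found in 697 of them, 2 members in 75 and 3 or more in 20. Of the 697 loci with a single member, 358 had at least 1 other measured circle, and in 339 the member was the only measured one. The member was the only circle of its locus on the array in 286. Every measured circle was a member in 20 of the 1753 loci with 2 or more measured circles.

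Members shared ends with other circles, given here as a description. Among lower ends shared by 2 or more measured circles, 204 carried a member, and at 193 of these the members stood beside non-members. Among shared higher ends, 198 carried a member and 177 were mixed. Of the other circles at a shared lower end, on average 16.2% were members where the circle itself was one, and 9.55% where it was not. At higher ends these shares were 23.3% and 9.03%. Members thus shared an end with other members more often than non-members did. Circles that share an end overlap in position and are not independent.

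The locus with most members was chr13:95215877-95298351, with 6 members among 13 circles. The circles ending at 95232527 all belonged to them: the one from 95215877 stood at 44.4-fold, that from 95216021 at 74.7-fold and that from 95225351 at 26.4-fold. Their partners were well above background on 4, 2 and 5 arrays, and with the partner raised as above the ratios were at least 34.2-fold, 32.3-fold and 22.7-fold. The circle from that same 95225351 to 95253315 stood at 1.39-fold. A further 3 circles started at 95249682, and their ratio was 2.75-fold where they ended at 95253315, 18.0-fold at 95263696 and 10.2-fold at 95271979. Their levels lay in a narrower range, at 2.79, 2.40 and 1.80, while the partner level went from 1.33 to -1.77 and -1.55. The last member of the locus, from 95271873 to 95298351, stood at 16-fold.

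A further 5 loci held 4 members each, and 4 of these are described, taken in order of chromosome and start; the remaining one was chr18:50072297-50099263, with 4 members of 5 circles. At chr5:3809636-3832226 all 4 circles were members. The longest, over the whole locus, stood at 15.2-fold, or at least 11.6-fold. The 3 that started at 3818527 stood at 36.4-fold, 47.5-fold and 36.3-fold over partners well above background on 0, 1 and 1 arrays, or at least 16.8-fold, 26.2-fold and 21.5-fold. At chr11:62190137-62252017 the members were 4 of 13 circles, and the highest of them was 62233100-62236569 with 30.6-fold. The circles from 62190137 to 62192156 and to 62196877 stood at 16.9-fold and 28.6-fold. The fourth, 62224322-62247161, stood at 27.7-fold, or at least 7.31-fold, with a partner never well above background, and the circle that ran on from the same start to 62252017 at 2.57-fold.

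At chr11:77353556-77415263 the members were 4 of 17 circles. They were 77353556-77362977 (61.3-fold), 77362774-77362977 (17.5-fold), 77377166-77385200 (12.7-fold) and 77377166-77393347 (25.8-fold), while 77377166-77398996 stood at 1.12-fold. At chr14:103646964-103698080, 4 of 14 circles were members. The members 103659413-103675735, 103659413-103682019 and 103661919-103675735 stood at 88.2-fold, 16.4-fold (at least 14.9-fold) and 23.4-fold. The fourth, 103675006-103696441, stood at 181-fold over a partner never well above background, or at least 40.6-fold. The circle 103675006-103696639, with the same start and a close end, stood at 1.12-fold. That pair was singled out for its contrast: over the 8 pairs of measured circles that hold a member, share a lower end and have higher ends within 300 bp of each other, the median gap was 2.29-fold, and over the 3 such pairs with a shared higher end it was 1.95-fold.

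**Figure D3:**
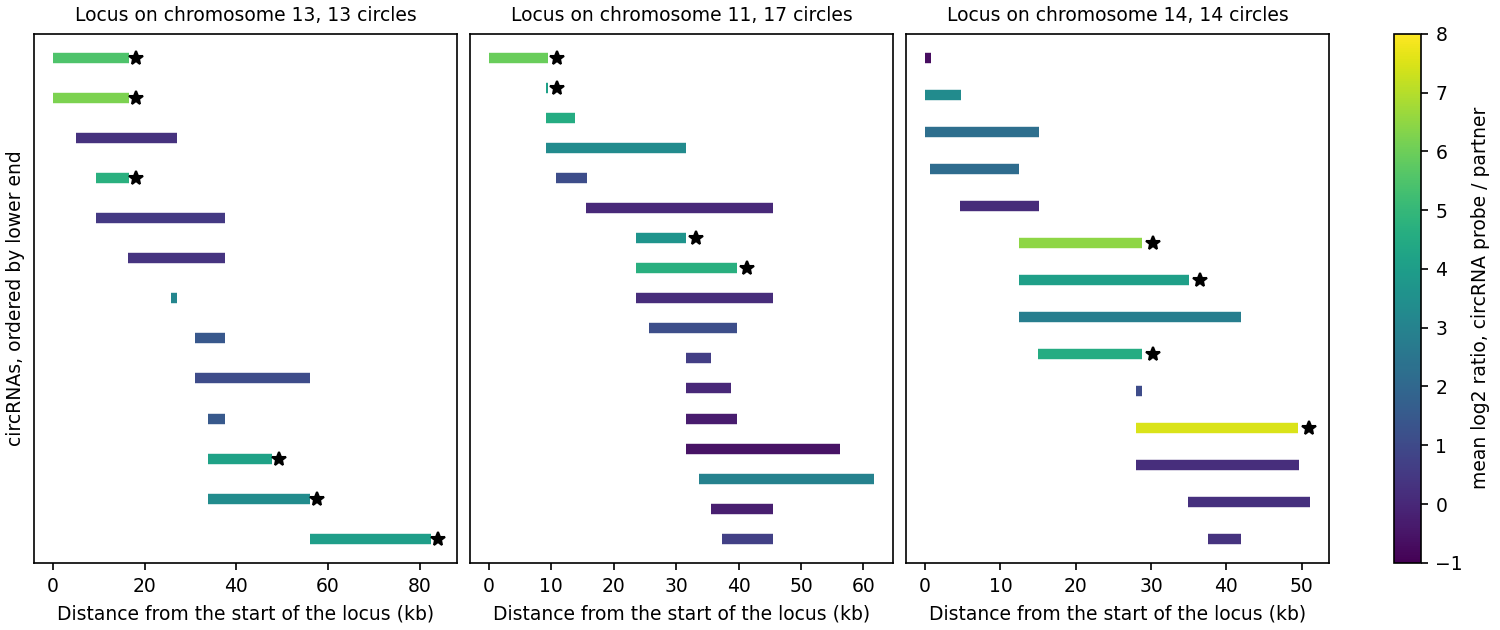
Circles of 3 loci drawn as bars from their lower to their higher end, in kb from the start of the locus, coloured by the mean log2 ratio of circRNA probe to partner over 9 arrays; a star marks a member. Members and circles with a ratio near 0 lie side by side in each locus, often with a common end. A bar with a high ratio and no star either fell under 8-fold on an array or had a marked spot.

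Within groups, the median SD of a member's level was 0.186, close to the 0.192 of the other measured circRNAs. The SD of the log2 ratio was larger, with a median of 0.416 against 0.187. It was 0.216 where the partner was well above background on all arrays and 0.596 where it never was. Members with a partner at background thus had the most variable ratios. Levels of members correlated between 0.967 and 0.992 from array to array, a description across circRNAs that share their arrays.

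The least variable member was mmu_circ_0005465, at -0.64, -0.61 and -0.65 on the control arrays, -0.76, -0.78 and -0.79 on the high fat diet arrays, and -0.75, -0.69 and -0.68 on the metformin arrays. Its SD within groups was 0.0263, and those of chr7:71839910-71860433, chr5:137762622-137764399, mmu_circ_0014509 and chr3:121710462-121711009 were up to 0.0418. The last 4 named had a partner well above background on all 9 arrays. The most variable member was chr2:76692444-76719896, with -2.03, -2.68 and -0.55 on the control arrays, -2.30, -2.36 and 2.60 on the high fat diet arrays, and 0.44, -2.84 and -2.63 on the metformin arrays. High fat diet replicate 3 stood far above all other arrays, then metformin replicate 1 and control replicate 3, so that every group held a high array. The circle chr2:76699154-76719896, with the same higher end, had the same order on its 3 highest arrays, at 1.91, -0.57 and -1.29.

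These 2 members lie in a locus, chr2:76685445-76726144, that was singled out after its values were seen. All 16 circles of it, members or not, had their highest level on high fat diet replicate 3, with a median of 0.50 there and -2.83 on the other arrays. For 12 of the 16 the partner too was more than 1 log2 unit above the median of its other arrays on that pool, but the partners of both members were never well above background. The difference high fat diet minus control was 1.07 ± 1.21 (SE) and 1.15 ± 1.04 (SE) for the 2 members, and it was -0.58 and -0.36 once high fat diet replicate 3 was removed. In column 1 of slide 1 alone it was -0.55 and -0.32. All 12 tested circles of the locus turned from higher to lower when that pool was left out, and none had passed (smallest adjusted p 0.809, limma, Benjamini-Hochberg). The other highly variable members were chr12:105321823-105324121, mmu_circ_0015530 and mmu_circ_0013284, with SDs of 0.89, 0.86 and 0.77.

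Levels were compared between groups with limma over all tested circRNAs, with Benjamini-Hochberg adjustment and a threshold of 0.05. All members entered the test. No member passed for high fat diet against control, where 0.0% of the 25777 tested circRNAs passed, and the smallest adjusted p of a member was 0.244. At an unadjusted p under 0.05 there were 104 members (5.22%), 28 higher (against 2.07% of all tested) and 76 lower (against 5.18%), and the share of all tested was 7.25%. The 104 became 177 without high fat diet replicate 1. For this and the later counts with an array left out, the share of all tested circRNAs is not given. Such counts do not tell whether members moved more than other circRNAs. The 3 high fat diet arrays all lay above the 3 control arrays for 51 members (2.56%), against 3.58% of all. They all lay below for 200 members (10.0%, against 9.0%). The median difference was -0.05 for members and -0.06 for all tested. The share of members was below that of all tested by each of these marks except separated lower groups, where it was near it. The tested circRNAs include ones well above background on the 3 arrays of a single group only, while members had to be so on all 9. The sets are thus not alike, here and in the comparisons below, and the distance between their shares is no result about the members.

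The member furthest below control was chr7:97153578-97161991. Its level was 1.59, 2.11 and 1.32 on the control arrays and 0.84, -0.31 and 0.02 on the high fat diet arrays, and the groups did not overlap. The metformin arrays lay between, at 1.08, 0.69 and 0.41. High fat diet minus control was -1.49 ± 0.291 (SE; adjusted p = 0.244, limma, Benjamini-Hochberg).

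A second circle with the same lower end, chr7:97153578-97177737, stood at 1.19, 1.78 and 0.76 in control and at 0.49, -0.64 and -0.27 on the high fat diet. The groups did not overlap, and the metformin arrays were at 0.65, 0.37 and 0.06. Its difference was -1.38 ± 0.302 (SE; adjusted p = 0.283, limma, Benjamini-Hochberg). In column 1 of slide 1 alone, with high fat diet replicate 1 against the 3 control arrays, the differences of the pair were -0.83 and -0.75. With normexp background correction and the same scaling they passed, at adjusted p = 0.0466 and 0.0376 (limma, Benjamini-Hochberg). Over all alternatives their adjusted p ran from these values to 0.725 and 0.811. How many of all tested circRNAs passed with normexp is not given, so the pair is not shown to stand out in that setting. The third circle of that locus was well above background on no array. The 2 circles share an end, so they are not independent. Their ratios to the partner were 103-fold and 151-fold, with partners well above background on 1 and 0 arrays.

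Of the other members named as lower, mmu_circ_0016344 had 1.42, 2.08 and 1.42 in control against 0.27, 1.05 and 0.19 on the high fat diet, without overlap. The difference was -1.14 ± 0.239 (SE; adjusted p = 0.281, limma, Benjamini-Hochberg), and its partner, well above background on 8 arrays, differed by -1.0 ± 0.410 (SE). The ratio of that pair therefore hardly differed, by -0.14 ± 0.222 (SE). For mmu_circ_0008788 the levels were 0.41, 0.06 and 0.05 against -0.63, -1.08 and -0.42. The groups were apart, with a difference of -0.88 ± 0.194 (SE; adjusted p = 0.283, limma, Benjamini-Hochberg). The circle chr4:71777364-71806454 differed by -0.73 ± 0.162 (SE) and was lower on all 3 arrays too.

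Of the members named as higher, chr6:113054929-113078535 had -1.98, -2.0 and -1.97 in control against -1.29, -1.08 and -1.43 on the high fat diet. The control arrays lay within a far narrower range than the others. The difference was 0.71 ± 0.149 (SE; adjusted p = 0.280, limma, Benjamini-Hochberg). The circle chr1:11172008-11172115, with a span of only 107 bp, had -0.98, -1.23 and -0.76 against -0.28, -0.26 and -0.49, a difference of 0.65 ± 0.155 (SE). Its partner differed by more, by 1.28 ± 0.256 (SE), and its ratio by -0.63 ± 0.290 (SE). The remaining 3 were chr15:22747383-22754048 (1.02 ± 0.281, SE), mmu_circ_0004486 (0.56 ± 0.156, SE) and chr18:73935033-73950851 (0.67 ± 0.190, SE). Of all 10 named members, 9 had groups that did not overlap, the exception being chr15:22747383-22754048. Within column 1 of slide 1, which held a single high fat diet array, the sizes ran from 0.55 to 1.37. For groups that do not overlap, the sign in such a subset follows from the full groups.

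**Figure D4:**
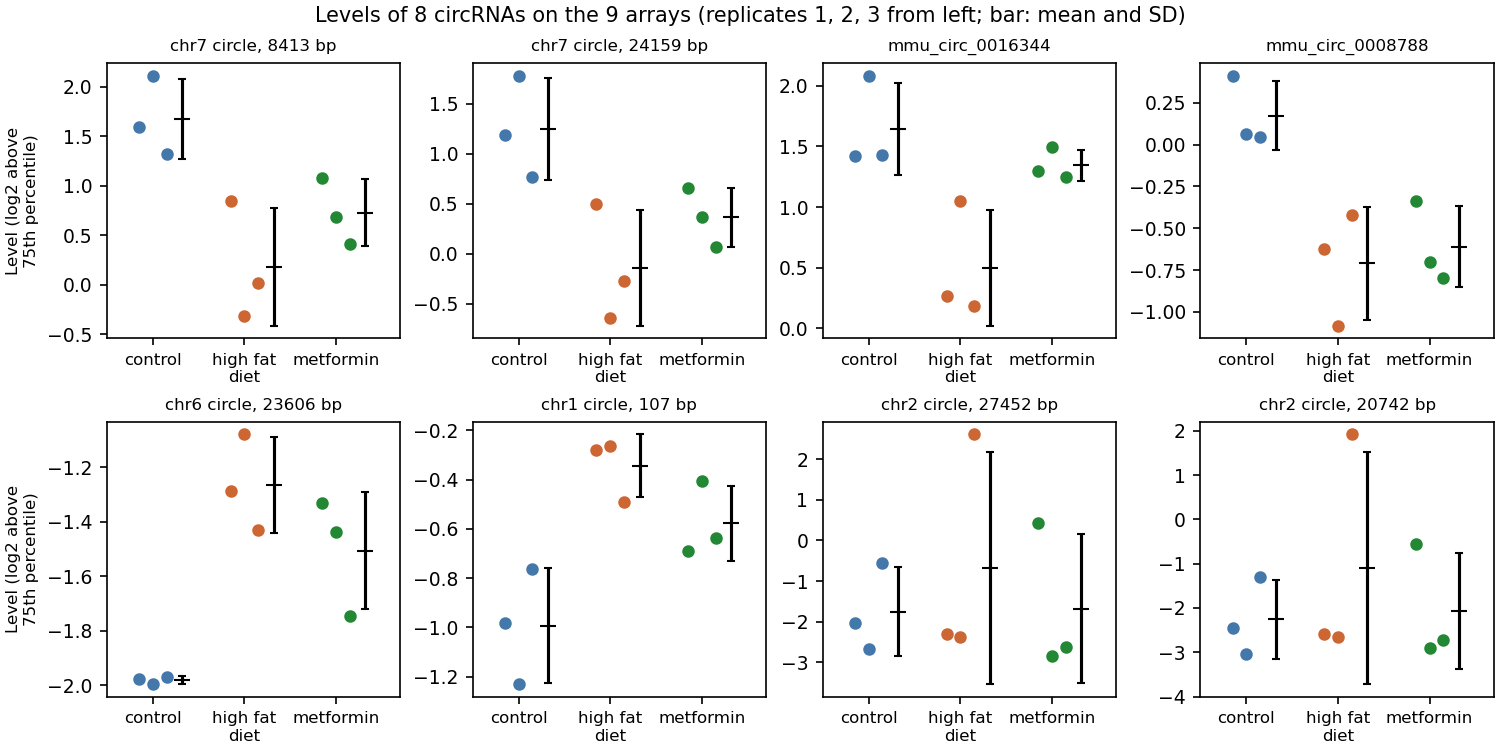
Level of 8 members on the 9 arrays, in log2 units above the array's 75th percentile; points are replicates 1, 2 and 3 from left to right in each group, and the bars mean and SD of 3. The chr7 circles and both mmu_circ members are lower, and the chr6 and chr1 circles higher, on the high fat diet arrays than in control, while the chr2 circles are high on high fat diet replicate 3 alone in their group.

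For metformin against high fat diet, no member passed either (0.0% of 25828 tested), with a smallest adjusted p of 0.969. At an unadjusted p under 0.05 there were 61 members (3.06%), 34 higher (against 2.32% of all tested) and 27 lower (against 1.58%), and the share of all tested was 3.9%. The 61 became 136 when high fat diet replicate 1 was left out, and 95 when replicate 3 of that diet was. The metformin arrays all lay above the high fat diet arrays for 116 members (5.82%, against 5.07%) and below for 58 (2.91%, against 2.67%). The median difference was 0.02 for members and 0.03 for all tested. The shares of members lay somewhat below those of all tested at that unadjusted threshold, in both directions, and near them for separated groups.

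The smallest unadjusted p among the higher members was that of chr5:96544801-96563151, at -2.04, -2.24 and -2.31 on the high fat diet and -1.59, -1.71 and -1.74 with metformin. The groups were apart by 0.52 ± 0.144 (SE; adjusted p = 0.969, limma, Benjamini-Hochberg), and the control arrays lay at -1.95, -2.11 and -1.71. Next was mmu_circ_0016344 again, with 1.30, 1.49 and 1.25 on the metformin arrays, higher by 0.85 ± 0.239 (SE). Because both comparisons use the same high fat diet arrays, its lower value against control and its higher value here are not separate observations. The others were mmu_circ_0002850 (0.58 ± 0.171, SE), chr1:78678168-78701966 (0.51 ± 0.150, SE) and chr2:60071956-60073054 (0.57 ± 0.175, SE).

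Of the lower ones, mmu_circ_0013258 had -1.57, -1.49 and -1.61 on the high fat diet and -2.19, -1.94 and -1.99 with metformin. These groups too were apart, by -0.48 ± 0.152 (SE). Further members were mmu_circ_0005867 (-0.40 ± 0.132, SE), chr14:27273024-27285149 (-0.48 ± 0.157, SE), mmu_circ_0006732 (-0.64 ± 0.216, SE) and chr10:115929348-115938373 (-0.37 ± 0.131, SE). The groups overlapped for mmu_circ_0006732 and not for the other 9 of the 10. Within column 2 of slide 1, where high fat diet replicates 2 and 3 and metformin replicates 1 and 2 lay, the sizes of the 10 differences ran from 0.29 to 0.78.

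For metformin against control, no member passed (0.0% of 25763 tested), with a smallest adjusted p of 0.672. At an unadjusted p under 0.05 there were 88 members (4.42%), 30 higher (against 1.64% of all tested) and 58 lower (against 3.43%), and the share of all tested was 5.07%. The 88 became 55 without control replicate 2. The metformin arrays all lay above control for 89 members (4.47%, against 4.76%) and below for 157 (7.88%, against 6.88%). The median difference was -0.04 for members and -0.03 for all tested. The shares of members again lay somewhat below those of all tested at that unadjusted threshold and near them for separated groups.

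Among the lower members mmu_circ_0008788 had the smallest p in this comparison, at -0.34, -0.70 and -0.80 with metformin, a difference of -0.79 ± 0.194 (SE; adjusted p = 0.672, limma, Benjamini-Hochberg). The member with the next code, mmu_circ_0008789, had -0.16, -0.43 and -0.51 in control and -0.80, -0.89 and -1.55 with metformin, a difference of -0.71 ± 0.206 (SE). Where these coded circles lie in the genome is not given in the files used here. The circle chr9:83471043-83491133 had 0.87, 0.88 and 0.84 in control against 0.46, 0.39 and 0.25, with a difference of -0.49 ± 0.126 (SE). Its control arrays were almost equal, as were those of chr1:172745554-172749563 (0.84, 0.80 and 0.81), which differed by -0.49 ± 0.142 (SE). The last was chr17:75017776-75039682 (-0.53 ± 0.159, SE).

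Higher with metformin than in control were mmu_circ_0008813 (-2.62, -2.72 and -2.81 in control against -2.14, -2.12 and -2.16) and mmu_circ_0003093 (-0.07, -0.01 and 0.14 against 0.62, 0.52 and 0.65). Their differences were 0.58 ± 0.143 (SE) and 0.58 ± 0.146 (SE). The circle chr15:22747383-22754048 was higher by 1.06 ± 0.281 (SE), with -0.26, 0.85 and 0.25 in control against 1.17, 1.24 and 1.62. The remaining members were chr13:4506927-4513674 (0.58 ± 0.166, SE) and Fan_16_148_1463 (0.55 ± 0.170, SE). The groups of all 10 named members did not overlap. No column of slide 1 held both groups. With the column as a covariate the 10 kept their sign, at sizes from 0.51 to 1.35. That fit counted metformin replicate 3, in column 1 of slide 2, with the control arrays of column 1. The column and the slide were not separated by it.

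**Figure D5:**
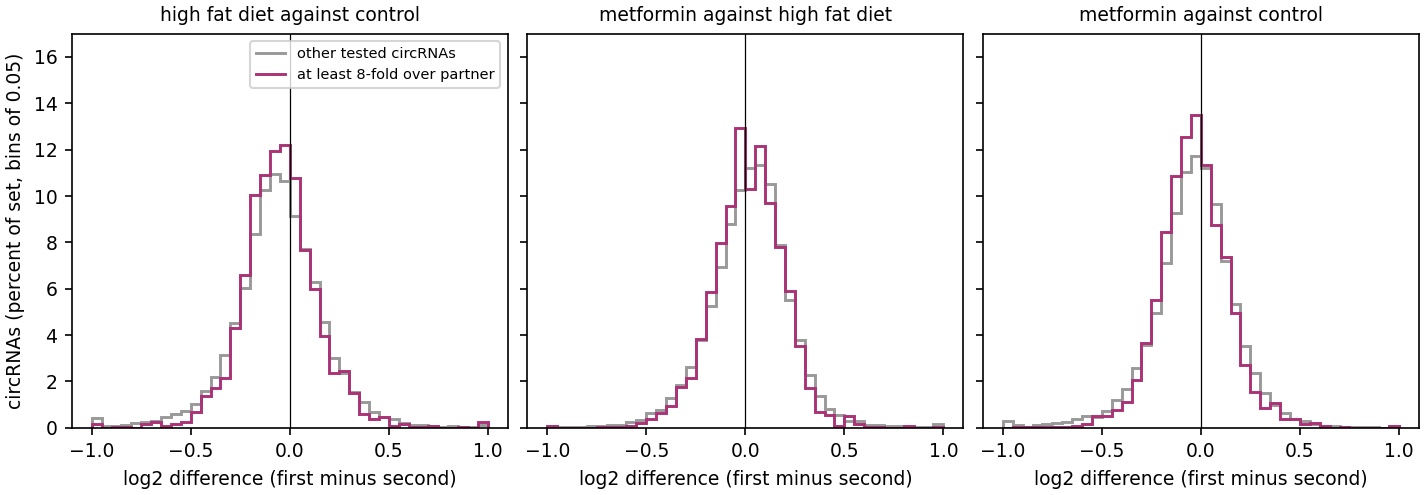
Distribution of log2 differences in level, in bins of 0.05, for the 1992 members and the other tested circRNAs in the 3 comparisons; each line shows the percent of its set, and differences beyond 1 in size are counted in the end bins. The members' differences are centred within 0.06 of 0 in each panel and are spread somewhat less than those of all tested circRNAs. For high fat diet against control their 5th and 95th percentiles were -0.35 and 0.27, against -0.42 and 0.30 of all tested. The tested circRNAs include dimmer ones that the rule leaves out.

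The same fit on the log2 ratio to the partner gave no member past the threshold either (limma, Benjamini-Hochberg; 0.0% of 25706, 25768 and 25678 tested). The rule chose the members by this same ratio on every array. Their shares below are therefore a description, and their distance from the shares of all tested is no result about the members. At an unadjusted p under 0.05 there were 128 members for high fat diet against control (6.43%, against 5.05% of all), 143 for metformin against high fat diet (7.18%, against 4.53%) and 180 for metformin against control (9.04%, against 5.97%). More of these were lower than higher: 74 (3.71%) and 54 (2.71%), 108 (5.42%) and 35 (1.76%), and 142 (7.13%) and 38 (1.91%). Of all tested, 2.49% were lower and 2.56% higher in the first comparison. The shares were 3.17% and 1.37% in the second and 4.17% and 1.8% in the third. All tested circRNAs thus leaned to lower ratios too in both comparisons with metformin. Without metformin replicate 3, the array with the lowest member ratios, the counts were 206, 246 and 151, and without high fat diet replicate 1 the first was 196. In all 18 entries of the lists named by the ratio, the partner differed by more than the circRNA probe did.

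The member with the smallest p by ratio was chr17:13969375-13996983, at log2 ratios of 5.99, 6.04 and 5.90 in control, 6.37, 6.31 and 5.68 on the high fat diet and 3.92, 4.43 and 3.77 with metformin. All metformin arrays lay below all others. The ratio differed by -2.08 ± 0.225 (SE; adjusted p = 0.322) from the high fat diet and by -1.93 ± 0.225 (SE; adjusted p = 0.280, limma, Benjamini-Hochberg) from control. The partner, well above background on 1 array, differed by 1.77 from the high fat diet, and the circRNA probe by -0.32 ± 0.282 (SE). Within column 2 of slide 1 the ratio differed by -1.82. The next were chr7:63133061-63143309, with -0.82 ± 0.124 (SE) from control and a partner well above background on all 9 arrays, and Fan_16_148_1148 with -1.09 ± 0.155 (SE).

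For metformin against high fat diet, the ratios of chr10:77677313-77685605 (-0.67 ± 0.115, SE) and chrX:98755105-98758318 (-0.71 ± 0.145, SE) were also lower. Higher ratios were those of chr11:23349213-23352081 (0.82 ± 0.150, SE), mmu_circ_0004622 (0.74 ± 0.158, SE) and chrX:101691075-101697245 (0.86 ± 0.197, SE). Against control, chr9:105968983-105970723 (0.91 ± 0.173, SE) and mmu_circ_0012825 (0.66 ± 0.147, SE) had higher ratios with metformin. For high fat diet against control the ratios of mmu_circ_0003701 (0.88 ± 0.189, SE), mmu_circ_0004746 (0.92 ± 0.199, SE) and chr16:16225394-16247136 (1.03 ± 0.242, SE) were higher. Those of chr7:63133061-63143309 (-0.66 ± 0.124, SE), chr18:55147265-55148360 (-1.31 ± 0.268, SE) and mmu-circRNA521-2 (-1.19 ± 0.269, SE) were lower.

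Across circRNAs, the difference of a probe and that of its partner were set side by side. They went together less among members than among other circRNAs with both probes well above background on all arrays. Other circRNAs with a dimmer partner were not included, so this is not shown to be particular to members. For high fat diet against control the correlation was 0.451 over the 512 members with a partner well above background on all arrays, 0.294 over the 748 with 1 to 8 such arrays and 0.153 over the 732 with none. It was 0.656 over the 15372 other circRNAs with both probes well above background on all arrays. For metformin against high fat diet the values were 0.304, 0.178, 0.0331 and 0.590, and for metformin against control 0.306, 0.259, 0.0999 and 0.583. The order was the same in the 3 comparisons, which share arrays. These are descriptions across circRNAs, which share libraries and differ in partner brightness, and whether the difference between the sets exceeds chance was not tested.

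In the authors' deposited table of log2 values, the median member value was 9.39, against 7.13 for the other measured circRNAs. The mean deposited value followed log2 of the intensity minus the partner's with a correlation of 0.999998 over members. The deposited value and the membership rule thus rest on the same 2 intensities, and the medians are a description. The rule keeps members off the floor of the deposited values, -3.32, at which 5720 of the 19055 other measured circRNAs stood on at least 1 array.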

How the data were processed

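Liver RNA of 9 pools was read on a 1-colour Agilent circRNA array. Per the file headers, the deposited intensity of each spot (processed signal) is background-subtracted and detrended by Agilent Feature Extraction 11.5.1.1 (the submitters' processing notes name 10.7), with a grid on build mm9. Median intensities of spot and surroundings were deposited unprocessed. A table of log2 values per circRNA was deposited too; its scaling is not stated, and the values were used as an alternative and for 1 description.

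Values were computed with Python 3.11.15 (pandas 2.3.3, numpy 2.4.6). Log2 processed signals minus the array's 75th percentile were fitted with limma 3.58.1 in R 4.3.3 (lmFit, eBayes, 3 groups in 1 fit; 6 residual and 5.72 prior degrees of freedom). A circRNA was tested if well above background on all 3 arrays of a group (25864); all 1992 members were. p-values were adjusted over all tested circRNAs (Benjamini-Hochberg). The same fit was made on log2 ratios to the partner. The fit was tested on simulated data. The 97 named circRNAs are the 10 highest by ratio, the 10 brightest, 5 per direction and comparison by level, 3 by ratio, 3 each side of the threshold, the members of the 5 loci with most members (ties by chromosome and start, which left out 1 locus on chromosome 18), 5 most and 5 least variable, and those called in any setting. Members and lists were chosen with earlier results of these data known. Alternatives were background correction, scaling, filters, the deposited log2 values, the slide column, a replicate block and left-out arrays. Same-numbered replicates did not deviate together, so numbers were not taken as pairs. Host gene lists were not tested, since no probe was paired with a gene.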

Additional observations from a re-analysis of the deposited data

How the results depend on the processing

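The number of members was 4570 at a 4-fold threshold and 755 at 16-fold, 990 with median signals without background subtraction, and 1185 with the partner raised to the lowest signal well above background, an alternative chosen after seeing the data. It was 2557 with median signals minus local background, 2146 with marked spots kept and 2153 with arrays of a marked spot passed over, and 2022 to 2253 with 1 array left out. Of the 1992, 980 (49.2%) were found again without background subtraction and 1926 (96.7%) with local background subtracted; the looser settings keep all of them by construction. No alternative called a member by level except normexp with 75th percentile scaling, which called 2 for high fat diet against control, and the cause was not tested. The share of all tested circRNAs called in that setting is not given. Calls by level were 0 to 0 in each comparison with 1 array left out, and so were calls by ratio. For high fat diet against control, the difference of chr2:76692444-76719896, 1.07, was -0.22 when the column entered the fit and -0.55 in column 1 of slide 1 alone, and ran from -0.58 to 1.90 with 1 array left out. That of chr2:76699154-76719896, 1.15, was -0.32 in that column and ran from -0.36 to 1.93. Both were lowest without high fat diet replicate 3. With the replicate block no member was called in any comparison (0), by level or by ratio; correlations of same-numbered deviations ran from -0.241 to 0.229, with 3 of 9 over 0.1, and 3 arrays matched best with their own number. Counts of members at unadjusted p under 0.05 ranged from 44 to 177 by level and from 63 to 477 by ratio over all alternatives. The shares of all tested circRNAs in these settings are not given beside them. With trend and robust fitting the ratio gave 63 in place of 128 for high fat diet against control, 96 in place of 180 for metformin against control, and 70 in place of 143 between metformin and high fat diet. The 477 were for metformin against high fat diet in column 2 of slide 1 alone. By level that comparison gave 61, but 99 and 98 with normexp and 95 with the authors' deposited values. A ratio over a partner at background has no upper limit in these data.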
